A study of Mus musculus with 10 samples.

Results

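Solute carriers are the membrane proteins that move sugars, amino acids, ions, metals, vitamins, bile acids and metabolites across the plasma membrane and the membranes of organelles. The genes described here are the expressed members of this superfamily in intestinal epithelial cells (IECs) of the mouse colon. They were taken as all genes whose symbol starts with Slc and a number and whose mean level over all 10 libraries was at least 5 TPM (a level relative to the total of the library and corrected for transcript length). Left out by the rule were 6 genes, namely Slc26a3, Slc9a3, Slc5a8, Slc16a1, Slc16a3 and Slc12a2. This gave 160 genes of the 383 Slc genes and 55487 genes in the table, all of them annotated as protein coding. Of the other Slc genes, 56 had a mean of 1 to under 5 TPM and 161 had a mean under 1 TPM.

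The study compared WT mice with RhoB-/- mice, which lack the small GTPase RhoB in the whole body, both on the C57BL/6J background and without a treatment named in the labels. RNA was sequenced from 5 libraries per genotype, made from IECs that were released from the colon with EDTA and DTT. The labels give no age and no sex. The methods of the study describe young adult animals and call the purchased WT mice male. In the methods of the study the WT mice were purchased and the RhoB-/- mice came from another centre. The paper also mentions WT littermates in its chronic colitis experiment, and it does not say which WT mice gave the sequenced cells. Genotype and source of the mice therefore cannot be told apart here.

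A solute carrier usually works as one step of a transcellular route. A carrier in the apical membrane takes a solute up from the lumen, often driven by the sodium gradient, and another carrier in the basolateral membrane passes it to the blood. In the colon such routes serve the recovery of salt and water, the return of bile acids that escaped the ileum, and the uptake of metals, vitamins and bacterial products. Most members of the Slc25 family sit in the inner mitochondrial membrane and exchange metabolites between the cytosol and the matrix. Members of the Slc35 family carry nucleotide sugars into the Golgi apparatus and the endoplasmic reticulum, where glycoproteins such as mucins are built.

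The genes were selected on their mean TPM over both genotypes and not on the difference between them. Just inside the threshold were Slc2a8 with a mean of 5.13 TPM, Slc5a3 with 5.21 TPM and Slc35e2 with 5.36 TPM. Just outside were Slc7a9 with 4.97 TPM, Slc16a13 with 4.96 TPM and Slc12a9 with 4.67 TPM. In both genotypes taken alone the mean was at least 5 TPM for 147 genes. Through the WT libraries alone 11 genes passed, among them Slc5a6, Slc35e3, Slc25a23 and Slc5a3. Through the RhoB-/- libraries alone 2 genes passed, Slc13a1 and Slc15a2. For such genes the selection favoured a difference in that direction.

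Sequences upstream of 4 genes that are described in detail are shown here, since Slc51a, Slc51b and Slc10a2 encode the carriers of one bile acid route and Slc30a1 encodes the zinc exporter of the basolateral membrane. A RefSeq window of 250 bases before the start (GRCm38.p6) was available for 121 of the 160 genes and for 25 of the genes that passed the test described below. Bases that lie within the gene as placed by GENCODE were searched but are not printed. Capitals mark AGGTCA, the half-site bound by many nuclear receptors, on either strand for the first 3 genes. For Slc30a1 they mark the core of the metal response element, TGCACNC or TGCGCNC, on either strand. The stretches are chr16:32487880-32488129 for Slc51a, chr9:65422956-65423023 for Slc51b and chr8:5105352-5105537 for Slc10a2, all on the minus strand, and chr1:191906531-191906766 for Slc30a1 on the plus strand.
Slc51a: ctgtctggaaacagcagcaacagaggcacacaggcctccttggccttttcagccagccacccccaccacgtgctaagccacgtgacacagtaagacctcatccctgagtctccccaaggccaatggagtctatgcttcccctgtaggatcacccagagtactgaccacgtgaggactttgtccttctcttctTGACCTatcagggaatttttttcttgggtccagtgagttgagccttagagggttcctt
Slc51b: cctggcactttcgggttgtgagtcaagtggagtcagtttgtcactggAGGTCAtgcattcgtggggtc
Slc10a2: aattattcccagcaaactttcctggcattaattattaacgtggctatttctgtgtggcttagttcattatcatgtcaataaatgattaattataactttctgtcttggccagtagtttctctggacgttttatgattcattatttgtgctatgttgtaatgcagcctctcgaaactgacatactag
Slc30a1: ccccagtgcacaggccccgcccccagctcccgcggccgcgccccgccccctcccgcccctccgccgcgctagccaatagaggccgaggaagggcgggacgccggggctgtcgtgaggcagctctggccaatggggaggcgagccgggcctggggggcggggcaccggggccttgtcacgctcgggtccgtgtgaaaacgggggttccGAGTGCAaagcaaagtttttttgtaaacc
AGGTCA was found on the opposite strand of Slc51a, beginning at position -58 from the RefSeq start, and on the strand of Slc51b, beginning at position -203. It was not among the 250 bases of Slc10a2. For Slc51b the bases after the RefSeq start did not match the beginning of a GENCODE transcript, and only 68 bases lie outside its GENCODE gene. The position of its match is thus uncertain. For Slc51a, Slc10a2 and Slc30a1 such bases were found near the beginning of a GENCODE transcript, which does not show that the starts are the same. GENCODE places the starts of Slc10a2 and Slc30a1 further upstream, since 186 and 236 of their 250 bases lie outside the gene. Positions of matches are counted from the RefSeq start. The half-site stood in 14.0% of all 32851 windows of this length. It stood in a window of 2 of the 15 genes that rose and had a window, and of 1 of the 10 that fell. The metal response core was found on the opposite strand of Slc30a1, beginning at position -43, and stood in 21.4% of all windows. It stood in a window of 8 of the 15 genes that rose and of 4 of the 10 that fell. A gene was counted when any of its windows held the letters, so these counts are not shares of windows. These are matches of letters and not measured binding sites.

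Before the genes are compared, some properties of the libraries bear on them. Each library had 20261 to 21344 genes with a TPM above 0, and TPM keeps no sequencing depth, so the depth behind each value is unknown. Mitochondrially encoded genes took 10.3% to 26.5% of the TPM. Rhob, the targeted gene, was at 170.5 to 388.7 TPM in WT libraries and at 0.09 to 0.57 TPM in RhoB-/- replicates 1 to 4. The library labelled RhoB-/- replicate 5 had 110.9 TPM of Rhob, below each WT library but far above the other RhoB-/- libraries. It was kept in its labelled group, and values without it are given where a call rests on it. Epithelial markers were high in every library (summed level of the 8 markers 8794 to 13863 TPM). Of the 8 markers of the small intestine 6 had a mean under 1 TPM, and the intestinal lactase gene Lct did not exceed 0.07 TPM.

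The 160 genes ranged from a mean of 5.13 TPM to 1423 TPM, with a median of 18.8 TPM. A mean of at least 100 TPM was reached by 18 genes, and 40 genes were under 10 TPM. Together they made up 6620 to 8628 TPM in WT libraries (median 7838) and 7708 to 10049 TPM in RhoB-/- libraries (median 8497), and these ranges overlapped. Mitochondrial carriers were the largest share of this sum, with 2711 to 3389 TPM in WT and 2776 to 3569 TPM in RhoB-/- libraries. The highest levels were those of Slc25a5, the ADP/ATP carrier of the inner mitochondrial membrane, with 1422 ± 133 TPM (SD, n = 5) in WT and 1424 ± 136 TPM in RhoB-/- mice. Next came Slc25a3, the mitochondrial phosphate carrier, with 673.9 ± 66.0 TPM in WT libraries and 680.0 ± 65.5 TPM in RhoB-/- libraries. Neither differed between the genotypes beyond the spread of the libraries (log2 fold change 0.0025, SE 0.12, and 0.01, SE 0.11). The next levels, those of Slc44a4 and of the adaptor gene Slc9a3r1, are described with the genes that rose. They were followed by Slc6a14, a sodium- and chloride-coupled carrier of neutral and cationic amino acids, which had 192.0 ± 37.8 TPM in WT libraries and 285.4 ± 53.7 TPM in RhoB-/- libraries, overlapping groups and a change of 0.57 (SE 0.17, adjusted p = 0.0328), below the fold threshold.

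**Figure D1:**
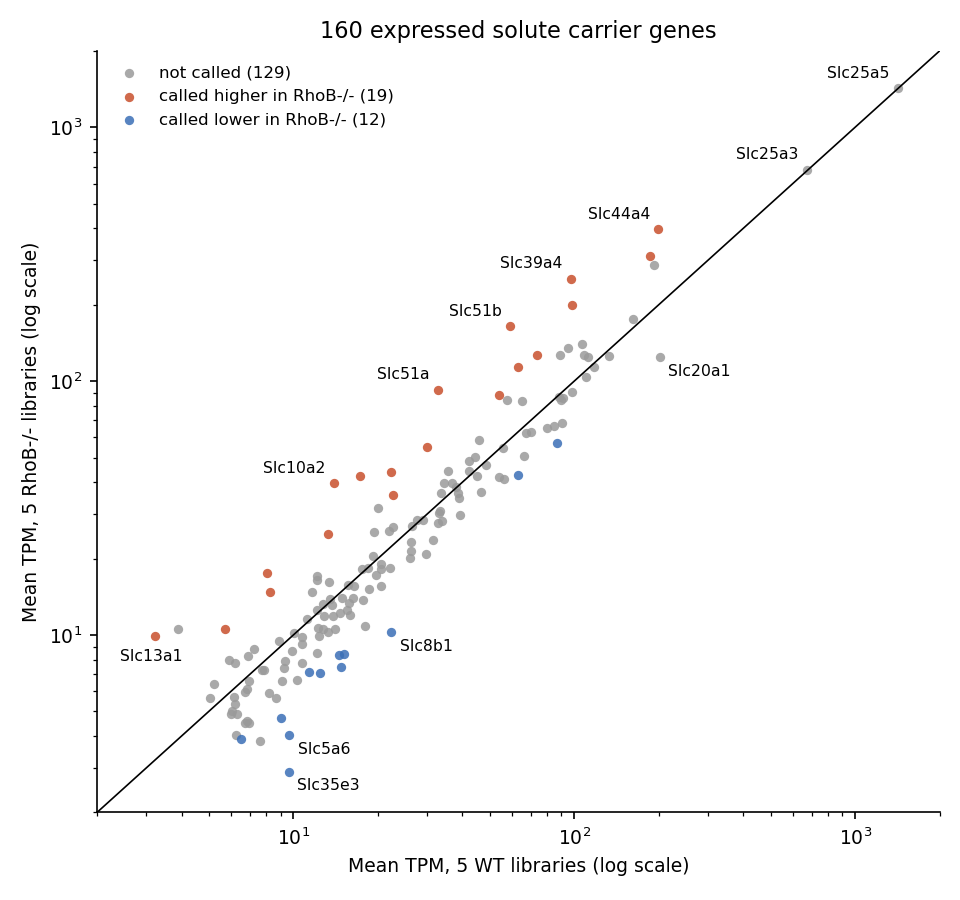
Mean TPM of each of the 160 solute carrier genes in 5 WT libraries (x axis, log scale) against 5 RhoB-/- libraries (y axis, log scale). The line marks equal levels. Slc25a5 and Slc25a3 lie on the line at the top, the 19 genes called higher (red) lie above it and the 12 called lower (blue) below it, and most of the called genes are below 100 TPM.

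The genotypes were compared for each gene with limma on log2(TPM + 1), and a gene was called when its adjusted p was below 0.05 and its fold change above 1.5. By this rule 19 of the 160 genes rose in RhoB-/- mice (11.9%) and 12 fell (7.5%), in all 19.4%. Over all 12870 genes tested 5.58% rose and 7.13% fell, in all 12.7%, and over the 9281 genes with a mean of at least 5 TPM 5.99% rose and 5.86% fell (11.9% in all). The share of solute carrier genes that rose was thus above that of all genes, and the share that fell was near it. Among the 147 genes at 5 TPM or more in each genotype, 18 rose and 8 fell. At an unadjusted p below 0.05 the counts were 20 and 15, against 6.37% and 8.33% of all genes tested. The values of the genotypes did not overlap in 31 genes (19.4%, against 14.5% of all genes tested), with 19 of them higher (background 5.97%) and 12 lower (background 8.55%). Of the 31 called genes 8 had overlapping groups, against 429 of the 1636 called over all genes tested, which is a similar share.

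The median log2 fold change of the 160 genes was -0.09, and that of all genes tested was -0.13. A change of 0 therefore stands for a gene that stood slightly above the typical gene. The split of the calls moved with the scaling. After centring of every library on its own median deviation 23 genes were higher and 8 lower (74.2% of the calls higher, against 61.3%). Over all genes tested the shares were then 7.38% higher and 4.19% lower. With mitochondrially encoded genes removed and the rest rescaled 18 were higher and 19 lower (48.6%), against 5.25% and 11.1% of all genes tested. The shift with the scaling was thus not particular to the solute carriers. Fold changes below were fitted to log2(TPM + 1), so that those of genes with low TPM are too small, and ratios are those of mean TPM. In bulk libraries fewer cells of a type and less RNA per cell cannot be told apart.

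Most but not all markers of mature absorptive colonocytes moved with the genotype. Of the 8 such genes 5 rose, while Car1, Guca2a and Guca2b were not called. The counts of this list and of the lists below stand against 5.58% of all genes tested that rose and 7.13% that fell. The summed level of the 8 was 17490 to 26613 TPM in WT and 31427 to 51488 TPM in RhoB-/- libraries. Most of this sum came from Car1 and Lypd8. Car1 overlapped (10411 to 15530 TPM in WT, 12131 to 23239 TPM in RhoB-/- libraries). Lypd8 did not (3348 to 6889 TPM and 13357 to 20395 TPM). Krt20, a keratin of mature surface cells, was at 588.1 to 902.4 TPM in WT and 1070 to 2414 TPM in RhoB-/- libraries. Of the 4 markers of the distal gut that were tested 2 fell, with a sum over the list of 115.5 to 231.8 TPM in WT and 63.8 to 82.9 TPM in RhoB-/- libraries. Hoxb13, a homeobox gene of the most distal gut, was at 50.02 to 135.0 TPM in WT and 13.99 to 35.13 TPM in RhoB-/- libraries. Of the 8 immune markers tested 5 rose, from a sum of 13.1 to 23.2 TPM to one of 24.4 to 78.1 TPM. Of these 5, Cd8a and Cd68 had WT means of 0.832 and 0.988 TPM. They passed the filter for testing only through the RhoB-/- libraries, which favoured a rise. Of the 8 proliferation markers 3 fell (Mki67, Mcm2 and Mcm5), and the changes of all 8 were negative, with a median log2 fold change of -0.59. Their sums of 293.9 to 391.7 TPM in WT and 154.3 to 398.6 TPM in RhoB-/- libraries overlapped. Of the 2 stromal markers tested 1 rose, Dcn, and the sum of that list was 2.98 to 4.04 TPM in WT and 5.72 to 35.1 TPM in RhoB-/- libraries. Of the 8 small intestine markers 2 were tested and 1 rose, Alpi, an intestinal alkaline phosphatase, from 20.2 ± 5.33 to 38.9 ± 11.6 TPM without overlap (log2 fold change 0.91, SE 0.21, adjusted p = 0.0109 by limma). The sum of that list was 22.8 to 48.5 TPM in WT and 46.9 to 68.8 TPM in RhoB-/- libraries, with overlap. The 4 erythroid markers had overlapping sums of 121.5 to 512.5 and 30.5 to 536.7 TPM, and 0 of them were called by limma (0 at an unadjusted p below 0.05). Smooth muscle and endothelial markers summed to at most 2.28 and 1.4 TPM in any library. The part of these markers in the changes of the solute carriers was not tested.

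The class of carriers of organic anions, organic cations and carboxylates, assigned by family number, held the most genes that rose. It includes Slc13a1, whose substrate sulphate is an inorganic anion and which was included through the RhoB-/- libraries alone. Of the 18 genes of the class 6 rose (33.3%) and 0 fell, against 5.58% and 7.13% of all genes tested. Their median log2 fold change was 0.23. At an unadjusted p below 0.05 the counts were the same, 6 and 0. The sum of the class was 479.2 to 614.5 TPM in WT and 772.2 to 1037 TPM in RhoB-/- libraries, without overlap. Of these 6 genes 3 make up the route of bile acids through an epithelial cell.

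Slc10a2 encodes the apical sodium-dependent bile acid transporter (Asbt), which takes conjugated bile acids up from the lumen and is best known from the terminal ileum. Its level was 14.43, 7.79, 20.44, 9.20 and 17.83 TPM in the 5 WT libraries and 28.49, 42.34, 31.42, 51.03 and 44.64 TPM in the 5 RhoB-/- libraries. The gene lies at chr8:5083219-5105351 on the minus strand (GRCm38). The lowest RhoB-/- library was above the highest WT library. The mean rose from 13.94 ± 5.43 to 39.58 ± 9.41 TPM (ratio 2.84), with a log2 fold change of 1.49 (SE 0.25, adjusted p = 0.00205 by limma).

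Slc51a and Slc51b encode the α and β subunits of the organic solute transporter, the heteromer that lets bile acids out across the basolateral membrane. They lie on different chromosomes, Slc51a at chr16:32474504-32487879 and Slc51b at chr9:65412714-65422955, both on the minus strand. Slc51a was at 22.74, 25.47, 39.47, 31.40 and 43.96 TPM in WT libraries and at 62.51, 90.52, 100.27, 93.92 and 115.48 TPM in RhoB-/- libraries. Slc51b was at 56.78, 48.04, 85.04, 38.99 and 67.10 TPM in WT libraries and at 148.82, 141.45, 192.42, 147.28 and 193.89 TPM in RhoB-/- libraries. For both subunits all RhoB-/- libraries were above all WT libraries. The ratio of the means was 2.84 for Slc51a (log2 fold change 1.49, SE 0.20, adjusted p = 0.000458 by limma). It was 2.78 for Slc51b (log2 fold change 1.5, SE 0.19, adjusted p = 0.000322 by limma). Without the library labelled RhoB-/- replicate 5 the changes of Slc10a2, Slc51a and Slc51b were 1.44, 1.41 and 1.44 and remained called.

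Nr1h4, which encodes the bile acid receptor FXR, was looked at after these values were seen. It was at 55.05 to 77.66 TPM in WT and 111.5 to 162.5 TPM in RhoB-/- libraries (log2 fold change 1.0, SE 0.14, adjusted p = 0.000483 by limma). Fabp6, the cytosolic bile acid binding protein of the ileum, was at 3.67 to 18.94 TPM in WT and 7.53 to 15.24 TPM in RhoB-/- libraries, and the groups overlapped (0.62, SE 0.35, adjusted p = 0.214). Fgf15, a target of FXR in the ileum, did not exceed 0.80 TPM in any library and was not tested. Exons of Slc51a overlap those of Pcyt1a on the opposite strand over 17.7% of their length, and those of Slc51b overlap Rasl12 over 12.8%. Whether the counting used strand is not given in the sources used here.

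The other 3 genes of the class that rose carry sulphate, dicarboxylates and organic anions. Slc13a1, the sodium-sulphate cotransporter NaS1, is best known from kidney and small intestine and lies at chr6:24088283-24168092. It was at 3.84, 2.37, 4.53, 1.74 and 3.62 TPM in WT libraries and at 9.33, 11.10, 7.6, 12.91 and 8.76 TPM in RhoB-/- libraries. The groups did not overlap, and the ratio of 3.09 was the highest among the genes called (log2 fold change 1.4, SE 0.20, adjusted p = 0.000664 by limma). Since Slc13a1 was included through its RhoB-/- libraries alone, the selection favoured this rise. Slc13a2, the apical carrier of citrate and other dicarboxylates (NaDC1), was at 60.92 to 86.66 TPM in WT and 109.7 to 153.2 TPM in RhoB-/- libraries (0.78, SE 0.14, adjusted p = 0.00257). Exons of Slc13a2 overlap the antisense gene Slc13a2os over 26.2% of their length. Slc17a4, an intestinal carrier of organic anions such as urate, was at 19.66 to 33.56 TPM in WT and 43.03 to 70.06 TPM in RhoB-/- libraries (0.86, SE 0.17, adjusted p = 0.00518).

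The 12 genes of this class that were not called had changes from -0.55 to 0.38. Slc22a18, an organic cation carrier-like protein, had the highest level of the class, with 106.4 ± 6.75 TPM in WT libraries and 139.4 ± 24.7 TPM in RhoB-/- libraries, overlapping groups and a change of 0.37 (SE 0.13, adjusted p = 0.0557). Slc16a9, a carnitine carrier of the monocarboxylate family, had a change of -0.55 with an adjusted p of 0.0183, below the fold threshold. It was chosen after its values were seen.

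**Figure D2:**
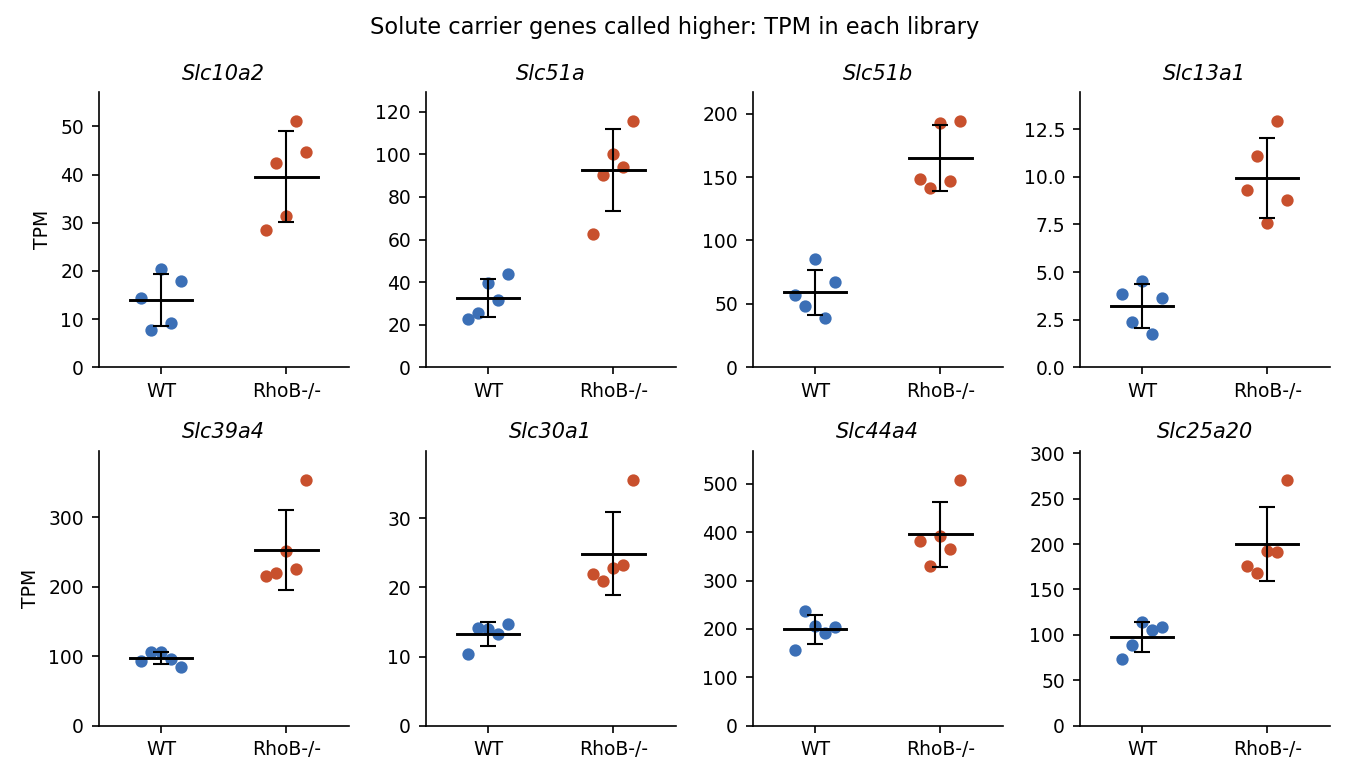
TPM (y axis, linear and starting at 0) of 8 genes that rose, in each of 5 WT (blue) and 5 RhoB-/- (red) libraries, with the mean and SD as line and bar. In all 8 panels every RhoB-/- library lies above every WT library. In all panels but those of Slc10a2 and Slc13a1 the highest point is the library labelled RhoB-/- replicate 5.

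Among the 21 carriers of metal ions 2 rose (9.52%), both of them carriers of zinc, and 0 fell. The counts of this class and of the classes below stand against 5.58% and 7.13% of all genes tested, and nothing is read from them. Slc39a4 encodes ZIP4, which imports zinc across the apical membrane and whose loss in humans causes acrodermatitis enteropathica. The gene lies at chr15:76612383-76617384 on the minus strand. It was at 93.31, 106.35, 106.46, 96.27 and 84.90 TPM in WT libraries and at 216.08, 219.06, 251.17, 225.54 and 353.68 TPM in RhoB-/- libraries. The WT libraries lay close together, and each RhoB-/- library had more than any of them. The ratio of the means was 2.60 (log2 fold change 1.35, SE 0.14, adjusted p = 7.69e-05 by limma), and without the library labelled RhoB-/- replicate 5 the change was 1.22.

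Slc30a1 encodes ZnT1, which exports zinc across the basolateral membrane, and lies at chr1:191906767-191913247 on the plus strand. Its level was 10.36, 14.19, 13.92, 13.32 and 14.78 TPM in WT libraries and 21.92, 20.89, 22.80, 23.21 and 35.55 TPM in RhoB-/- libraries. The groups did not overlap (ratio 1.87, log2 fold change 0.84, SE 0.15, adjusted p = 0.00288 by limma), and without the library labelled RhoB-/- replicate 5 the change was 0.71. The metallothionein genes Mt1 and Mt2, whose products bind zinc and copper in the cytosol, were looked at after these values were seen. Mt1 fell from 439.0 ± 51.2 TPM to 127.2 ± 45.5 TPM (log2 fold change -1.84, SE 0.20, adjusted p = 0.000104 by limma). Mt2 fell from 228.8 ± 40.2 TPM to 38.2 ± 17.8 TPM (-2.66, SE 0.28, adjusted p = 7.06e-05). All Mt1 and Mt2 values of RhoB-/- libraries were below all WT values.

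Of the other 19 carriers of metal ions none was called, and their changes ran from -0.45 to 0.59. This held for Slc40a1, the iron exporter ferroportin (42.2 ± 10.6 TPM in WT libraries and 44.3 ± 16.5 TPM in RhoB-/- libraries, change 0.03, SE 0.24). It also held for Slc31a1, the copper importer (48.5 TPM and 46.6 TPM, -0.05, SE 0.10), and for Slc11a2, the importer of ferrous iron (14.7 and 12.2 TPM, -0.25, SE 0.13). Slc30a10, a manganese exporter, had the largest change among them, 0.59 (SE 0.24, adjusted p = 0.103). The zinc carriers Slc39a5 and Slc39a7 had changes opposite in sign to that of Slc39a4 and below the fold threshold. Slc39a5, of the basolateral membrane, had a change of -0.45 (adjusted p = 0.0408), and Slc39a7, which releases zinc from the endoplasmic reticulum, one of -0.40 (adjusted p = 0.0328). These carriers were chosen after their values were seen.

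Among the 16 carriers of inorganic ions 3 rose and 1 fell. Slc9a2, the apical sodium-proton exchanger NHE2, was at 48.36, 66.09, 71.88, 62.60 and 66.83 TPM in WT libraries and at 102.50, 102.10, 101.89, 112.47 and 149.80 TPM in RhoB-/- libraries. The groups did not overlap (ratio 1.80, log2 fold change 0.84, SE 0.14, adjusted p = 0.00204 by limma). Slc34a2, the sodium-phosphate cotransporter NaPi-IIb, was at 5.49 to 13.81 TPM in WT and 9.30 to 25.51 TPM in RhoB-/- libraries, which overlapped (1.04, SE 0.28, adjusted p = 0.0228). Its call was lost without the library labelled RhoB-/- replicate 5 (1.03, adjusted p = 0.0548), and also without WT replicate 4, RhoB-/- replicate 2 or RhoB-/- replicate 4. Slc8a1, the sodium-calcium exchanger NCX1, rose by 0.73 (SE 0.20, adjusted p = 0.0246) with overlapping groups, from 8.29 ± 1.58 to 14.7 ± 4.78 TPM, and lost its call in 4 of the 10 fits that left out a library, including the one without the library labelled RhoB-/- replicate 5 (0.58, adjusted p = 0.0545).

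Slc8b1, the sodium-calcium exchanger of the mitochondrial inner membrane, fell. It was at 14.16, 38.17, 18.71, 22.95 and 17.74 TPM in WT libraries and at 10.19, 12.81, 8.67, 10.67 and 9.11 TPM in RhoB-/- libraries. The groups did not overlap, with WT replicate 2 above the other WT libraries (ratio 0.46, log2 fold change -0.98, SE 0.22, adjusted p = 0.00932 by limma).

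Slc20a1, the phosphate transporter PiT1, had the highest level of the class. It was at 87.57, 237.11, 225.59, 235.63 and 222.95 TPM in WT libraries and at 109.49, 163.13, 105.28, 98.63 and 144.78 TPM in RhoB-/- libraries. WT replicate 1 was below every RhoB-/- library, and the other 4 WT libraries were above all of them. Over all libraries the change was -0.64 (SE 0.27, adjusted p = 0.106), which was not called. Without WT replicate 1 it was -0.91 (adjusted p = 0.00315), past the threshold, and without any other library it was -0.74 to -0.56 (adjusted p from 0.0971 to 0.232). With mitochondrially encoded genes removed and the rest rescaled it also passed the threshold (-0.71, adjusted p = 0.0491). Slc4a2, the basolateral anion exchanger AE2, had groups that did not overlap, 94.9 ± 6.21 and 134.6 ± 15.6 TPM, and a change of 0.49 (SE 0.10, adjusted p = 0.00694), below the fold threshold. It was chosen after its values were seen.

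Slc9a3r1 carries a solute carrier symbol but encodes the adaptor NHERF1, which holds NHE3 and other apical proteins at the brush border. It rose from 185.6 ± 31.3 to 310.4 ± 74.9 TPM (log2 fold change 0.72, SE 0.17, adjusted p = 0.0124 by limma). Its groups overlapped by 1 WT library, WT replicate 3 with 233.9 TPM against the lowest RhoB-/- library with 229.4 TPM. The other genes with such symbols, Slc7a6os and Slc4a1ap, had changes of -0.18 and -0.11.

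Mitochondrial carriers, taken as all genes of the Slc25 family, numbered 31, of which 2 rose and 3 fell. Slc25a20, the carnitine-acylcarnitine carrier that brings fatty acids into the matrix for oxidation, was at 73.36, 88.49, 113.90, 104.82 and 108.94 TPM in WT libraries and at 175.91, 168.39, 192.76, 191.16 and 270.54 TPM in RhoB-/- libraries. The groups were well apart (ratio 2.04, log2 fold change 1.02, SE 0.16, adjusted p = 0.00115 by limma). Slc25a22, a mitochondrial glutamate carrier, was at 17, 17.20, 15.72, 19.74 and 16.34 TPM in WT libraries and at 35.88, 29.09, 48.39, 33.13 and 65.72 TPM in RhoB-/- libraries. The WT libraries were close to each other and the RhoB-/- libraries were spread over a wide range above them (ratio 2.47, log2 fold change 1.2, SE 0.19, adjusted p = 0.00142 by limma). Without the library labelled RhoB-/- replicate 5 the change of Slc25a22 was 1.03 and that of Slc25a20 0.90.

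The 3 mitochondrial carriers that fell were of low level. Slc25a23, an ATP-magnesium/phosphate carrier, fell from 9.05 ± 2.45 to 4.72 ± 0.634 TPM (log2 fold change -0.79, SE 0.16, adjusted p = 0.00501 by limma). Slc25a16 fell from 12.5 ± 2.11 to 7.11 ± 0.389 TPM (-0.72, SE 0.12, adjusted p = 0.00151). Slc25a36, a carrier of pyrimidine nucleotides, fell from 15.1 ± 4.39 to 8.38 ± 1.51 TPM (-0.75, SE 0.19, adjusted p = 0.0167). The groups overlapped for Slc25a36 alone among these 3, through WT replicate 1 with 9.54 TPM and RhoB-/- replicate 1 with 10.80 TPM, and its call was lost without WT replicate 4 (adjusted p = 0.0538). Slc25a10, the dicarboxylate carrier, had the third level of the class and did not differ beyond the spread of the libraries (161.5 ± 15 and 175.5 ± 31.5 TPM, change 0.10, SE 0.13).

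Among the 21 carriers of amino acids and peptides 1 rose and 1 fell. Slc3a1 encodes rBAT, the heavy subunit of the apical carrier of cystine and basic amino acids. It was at 30.67, 11.42, 22.92, 14.87 and 31.07 TPM in WT libraries and at 43.78, 42.76, 30.50, 46.85 and 54.66 TPM in RhoB-/- libraries. Only RhoB-/- replicate 3 reached the range of the WT libraries (log2 fold change 1.02, SE 0.26, adjusted p = 0.0179 by limma). Without the library labelled RhoB-/- replicate 5 the change was 0.94 with an adjusted p of 0.0518, and without WT replicate 4 the call was also lost. Slc7a9, the light subunit that pairs with rBAT, lay just under the threshold of 5 TPM, at 1.10 to 4.39 TPM in WT and 4.81 to 9.05 TPM in RhoB-/- libraries. Exons of Slc3a1 overlap those of Prepl on the opposite strand over 26.5% of their length.

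Slc1a5 encodes ASCT2, the exchanger through which cells take up glutamine. It was at 67.44, 100.56, 78.20, 100.30 and 87.16 TPM in WT libraries and at 50.67, 51.57, 70.63, 60.95 and 50.68 TPM in RhoB-/- libraries. The groups overlapped through WT replicate 1 and RhoB-/- replicate 3 (ratio 0.656, log2 fold change -0.60, SE 0.14, adjusted p = 0.0123 by limma). The change lay close to the fold threshold, and the call was lost in 5 of the 10 fits that left out a library, including the one without the library labelled RhoB-/- replicate 5 (-0.56). A list of target genes of ATF4, the transcription factor of the amino acid response, had 17 tested entries. Ddit3 entered it under more than 1 identifier, one of which was at 0 TPM in every WT library and high in RhoB-/- replicate 2 alone (216.87 TPM). Of the entries 0 rose by limma (1 at an unadjusted p below 0.05) and 1 fell, Ddit4 (-1.36, SE 0.13, adjusted p = 3.92e-05). These counts stand against 5.58% and 7.13% of all genes tested, and nothing is read from them. Asns, the asparagine synthetase gene of that list, had 16.8 ± 2.39 and 17.9 ± 4.44 TPM.

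The most variable genes within a genotype were Slc37a2 and Slc15a2. The median within-genotype SD of log2(TPM + 1) was 0.22 over the 160 genes and 0.23 over all genes tested. Slc37a2, a sugar phosphate carrier of the endoplasmic reticulum, had an SD of 1.33. It was at 13.30, 96.09, 86.52, 168.08 and 35.65 TPM in WT libraries and at 81.18, 46.10, 74.68, 11.30 and 113.62 TPM in RhoB-/- libraries, so that each genotype held libraries at both ends of the range (change -0.17, SE 0.69). Slc15a2, the proton-coupled peptide carrier PEPT2, had an SD of 1.10. It was at 5.80, 5.70, 3.80, 0.24 and 3.86 TPM in WT libraries and at 13.29, 5.18, 13.26, 1.73 and 19.45 TPM in RhoB-/- libraries. The libraries numbered 4 were the lowest of both genotypes, and the change of 1.15 (SE 0.57, adjusted p = 0.169) was not called.

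**Figure D3:**
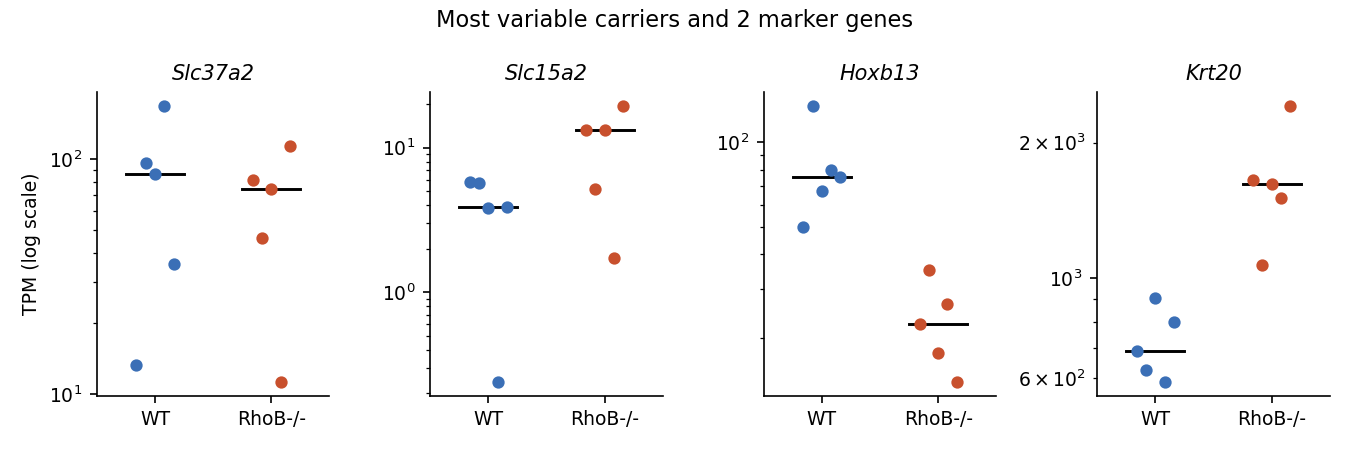
TPM (y axis, log scale) of the carriers Slc37a2 and Slc15a2 and of the marker genes Hoxb13 (distal gut) and Krt20 (mature colonocytes) in each of 5 WT (blue) and 5 RhoB-/- (red) libraries, with the median as a line. The carriers spread widely within both genotypes, whereas Hoxb13 was lower and Krt20 higher in every RhoB-/- library than in any WT library.

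Of the 14 carriers of sugars and sodium-coupled small solutes 1 rose and 3 fell. Slc2a1, the glucose carrier GLUT1, was at 35.63, 46.68, 70.55, 44.58 and 71.82 TPM in WT libraries and at 86.62, 74.30, 76.88, 80.04 and 123.83 TPM in RhoB-/- libraries. The groups did not overlap, but the gap between them was small against the spread of the WT libraries (ratio 1.64, log2 fold change 0.73, SE 0.21, adjusted p = 0.0277 by limma), and the call was lost in 6 of the 10 fits that left out a library, including the one without the library labelled RhoB-/- replicate 5 (0.60, adjusted p = 0.0671). Slc5a6 encodes SMVT, the sodium-coupled carrier of biotin and pantothenate. It was at 7.70, 12.96, 8.33, 9.83 and 9.58 TPM in WT libraries and at 3.90, 4.95, 3.38, 3.71 and 4.25 TPM in RhoB-/- libraries, without overlap. The ratio was 0.417 (log2 fold change -1.07, SE 0.14, adjusted p = 0.000377 by limma). Exons of Slc5a6 overlap those of Atraid on the opposite strand over 9.9% of their length.

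Slc50a1, a glucose carrier of the SWEET family, fell from 63.2 ± 3.85 to 42.8 ± 11.6 TPM (-0.59, SE 0.16, adjusted p = 0.0217), and Slc5a3, the sodium-myo-inositol cotransporter, from 6.50 ± 1.90 to 3.91 ± 0.769 TPM (-0.59, SE 0.18, adjusted p = 0.0372). Both had overlapping groups and changes close to the fold threshold. The call of Slc50a1 was lost in 6 and that of Slc5a3 in 8 of the 10 fits that left out a library, in both cases also without the library labelled RhoB-/- replicate 5 (-0.51, adjusted p = 0.0553 for Slc50a1, and -0.58, adjusted p = 0.0767 for Slc5a3). Slc37a1, a glucose 6-phosphate/phosphate exchanger, had the highest level of the class and did not overlap between the genotypes (80.2 to 100.1 TPM and 116.3 to 157.1 TPM), with a change of 0.50 (SE 0.11, adjusted p = 0.00948) below the fold threshold. Slc5a1, the sodium-glucose cotransporter SGLT1, was chosen after its values were seen and was at 34.4 and 39.7 TPM (0.21, SE 0.12).

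Of the 6 carriers of vitamins and cofactors 1 rose. Slc46a3, a lysosomal carrier, was at 4.47 to 6.95 TPM in WT and 7.12 to 14.55 TPM in RhoB-/- libraries (0.76, SE 0.17, adjusted p = 0.0117). Its relative Slc46a1, the proton-coupled folate carrier, was at 3.93, 13.66, 4.28, 8.52 and 7.58 TPM in WT libraries and at 3.41, 3.92, 3.44, 5.36 and 3.04 TPM in RhoB-/- libraries. The groups of Slc46a1 overlapped, and its change of -0.73 (SE 0.27, adjusted p = 0.072) was not called. Slc46a1 was chosen after its values were seen. Slc23a2, the ascorbate carrier SVCT2 and the gene with the highest level of the class, was at 22.7 ± 3.57 and 26.7 ± 5.74 TPM (0.21, SE 0.15).

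Among the 7 carriers of fatty acids, choline and acetyl-CoA 1 rose and 2 fell. Slc44a4, a choline carrier-like protein that takes up thiamine pyrophosphate in the colon, was at 155.52, 237.90, 205.95, 191.98 and 204.93 TPM in WT libraries and at 382.51, 330.10, 391.47, 364.98 and 507.79 TPM in RhoB-/- libraries. The groups did not overlap (ratio 1.98, log2 fold change 0.98, SE 0.14, adjusted p = 0.000734 by limma). It was the gene of the highest level among those that rose, and its change without the library labelled RhoB-/- replicate 5 was 0.89. Its relative Slc44a2 fell from 11.4 ± 2.51 to 7.14 ± 0.907 TPM (-0.59, SE 0.15, adjusted p = 0.0173), close to the fold threshold, and its call was lost in 3 of the 10 fits that left out a library. Slc27a1, the fatty acid carrier FATP1, was at 11.08 to 16.68 TPM in WT and 7.03 to 10.70 TPM in RhoB-/- libraries (-0.73, SE 0.14, adjusted p = 0.00498).

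Of the 20 carriers of the Slc35 family 1 rose and 1 fell. Slc35e3, whose substrate is not established, had the largest fall of the 160 genes and lies at chr10:117733679-117746365. The gene was included through the WT libraries alone, so that the selection favoured a fall. It was at 6.54, 11.59, 9.75, 11.32 and 8.94 TPM in WT libraries and at 2.91, 2.45, 2.39, 3.69 and 3.03 TPM in RhoB-/- libraries. The groups were well apart, with a ratio of 0.301 (log2 fold change -1.44, SE 0.15, adjusted p = 8.91e-05 by limma). Slc35d1, which carries UDP-glucuronic acid and UDP-N-acetylgalactosamine, rose from 22.7 ± 2.97 to 35.5 ± 5.97 TPM (0.61, SE 0.13, adjusted p = 0.00792), close to the fold threshold, and its call was lost in 4 of the 10 fits that left out a library, including the one without the library labelled RhoB-/- replicate 5 (0.54, adjusted p = 0.02, below the fold threshold). Slc2a1, Slc8a1 and Slc35d1 were chosen after their values were seen. Slc35c1, the GDP-fucose carrier, had the highest level of the class and overlapped between the genotypes (109.8 ± 13.6 and 104.0 ± 18.7 TPM). Its change of -0.09 (SE 0.14) turned to 0.027 after centring of every library on its own median deviation.

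The only nucleoside carrier among the 160 genes, Slc29a1 (ENT1), fell. It was at 12.61, 16.14, 14.45, 16.89 and 13.97 TPM in WT libraries and at 7, 6.42, 10.25, 8 and 5.68 TPM in RhoB-/- libraries. Every RhoB-/- library was below every WT library (ratio 0.504, log2 fold change -0.92, SE 0.14, adjusted p = 0.0012 by limma).

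**Figure D4:**
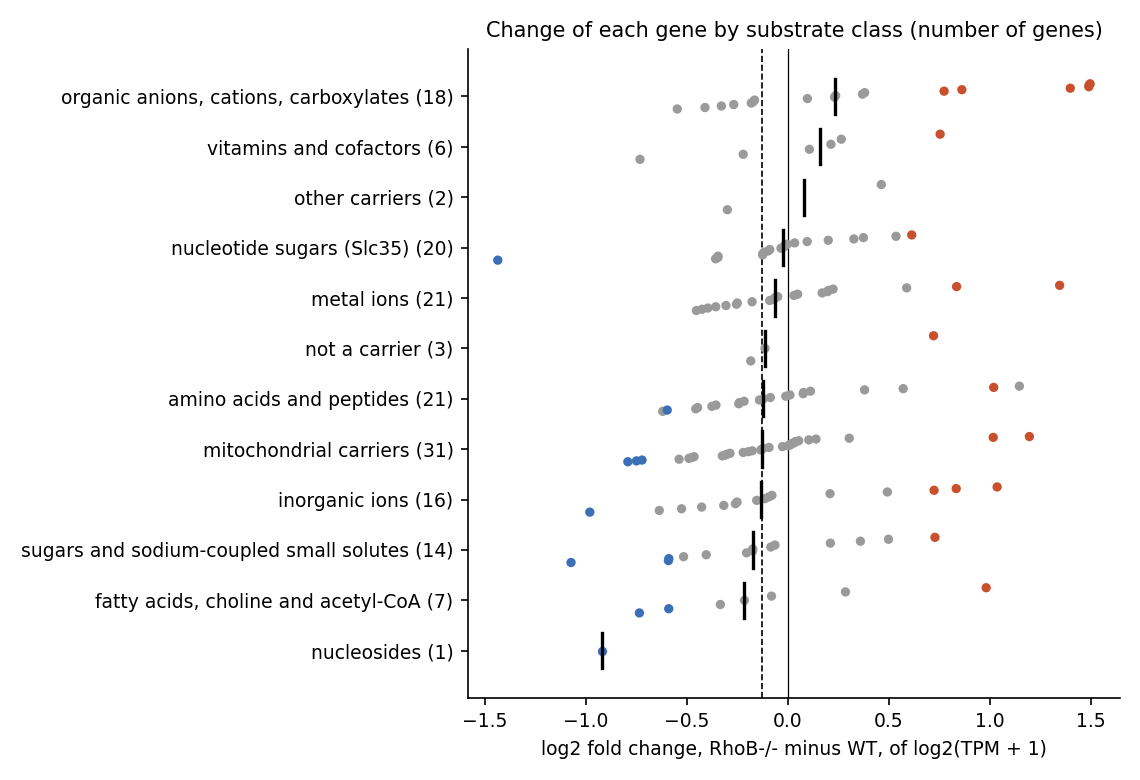
Log2 fold change (RhoB-/- minus WT, of log2(TPM + 1), x axis) of each of the 160 genes, in rows by class (from the family number of the symbol) with the number of genes. Red points are genes called higher, blue points genes called lower, the short bars are class medians and the dashed line is the median of all genes tested (-0.13). The class of organic anions, cations and carboxylates holds 6 of the 19 genes called higher and none called lower.

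The genes called from these libraries were also described library by library. Since the calls came from the same libraries, the selection favoured a separation, and the counts below are a description and no further support. Of the 19 genes that rose, 19, 18, 16, 19 and 19 were above the highest WT library in RhoB-/- replicates 1 to 5. Of the 12 genes that fell, 11, 12, 10, 11 and 12 were below the lowest WT library. The 19 genes that rose had a median deviation from their WT mean of 0.74 to 0.91 in RhoB-/- replicates 1 to 4 and of 1.31 in the library labelled RhoB-/- replicate 5, which also had the highest value of all libraries for 15 of them. For the 12 genes that fell the median deviation was -0.88 to -0.67 over the 5 RhoB-/- libraries, and that of the library labelled RhoB-/- replicate 5, -0.80, lay within the range of the others. Without this library 14 genes were higher and 9 lower. The shares over all genes tested fell as well, to 4.46% higher and 5.63% lower, from 5.58% and 7.13%. Of the genes that rose 14 of 19, and of those that fell 7 of 12, were called in each of the 10 fits that left out a library.

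**Figure D5:**
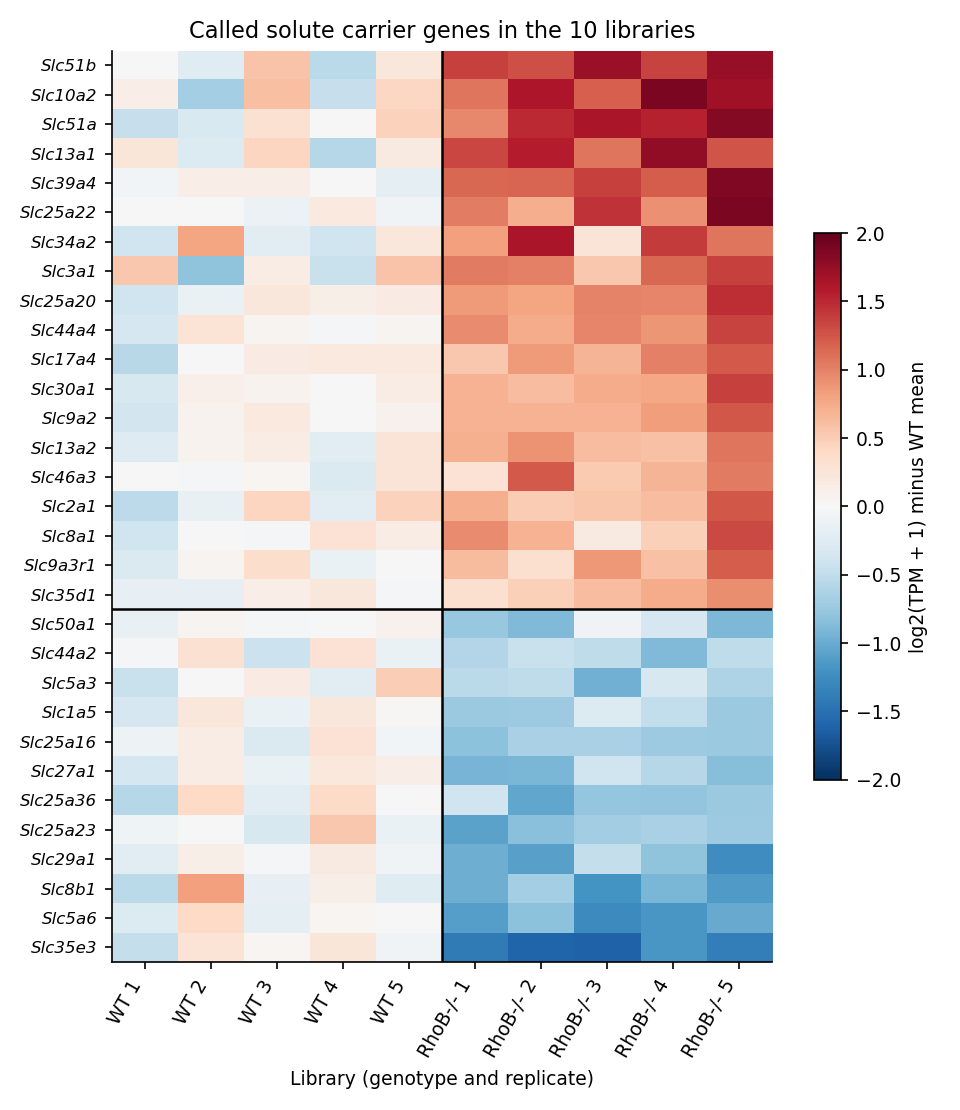
Deviation of log2(TPM + 1) from the WT mean (color scale, -2 to 2) for the 19 genes called higher (above the line) and the 12 called lower (below it) in each of the 10 libraries, ordered by log2 fold change. The genes that rose are mostly red in the RhoB-/- columns and darkest for most genes in the library labelled RhoB-/- replicate 5.

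Transport genes outside the Slc family were counted in the same way, against 5.58% of all genes tested that rose and 7.13% that fell, and nothing is read from the counts of these small lists. Of 26 tested ABC transporter genes 1 rose and 3 fell. The one that rose was Abca12, a lipid transporter, from 6.92 ± 1.69 to 25.3 ± 10.1 TPM (1.69, SE 0.23, adjusted p = 0.000478 by limma). Abcc1 and Abcc4, which export organic anions, and Abcg5, a sterol exporter, fell, with log2 fold changes of -0.65, -1.05 and -0.97. Of 3 tested Slco genes 1 rose, Slco2a1, the prostaglandin carrier, from 9.21 ± 1.84 to 22.5 ± 7.77 TPM (1.17, SE 0.20, adjusted p = 0.0021).

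Of 7 tested genes for subunits of the sodium, potassium and proton pumps and their FXYD regulators, 2 rose and 1 fell. Atp12a, the colonic proton-potassium pump, was at 8.01 to 34 TPM in WT and 35.89 to 99.72 TPM in RhoB-/- libraries (2.01, SE 0.37, adjusted p = 0.00328). Fxyd5 rose from 1.55 ± 0.576 to 4.27 ± 1.5 TPM, and Fxyd4 fell from 18.6 ± 14.3 to 4.30 ± 2.08 TPM, both with overlapping groups.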

How the data were processed

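IEC libraries of both genotypes, 5 each, were analysed, with genotype and replicate number from the labels. The authors trimmed paired-end reads of 150 bp, aligned them with HISAT2 and assembled them with StringTie. They deposited TPM values per gene from RSEM, which were used as given, to 2 decimals. The submitters' processing notes also name edgeR and the build GRCm38.p6. Tool versions and the annotation release are not given in the sources used here. TPM is relative to each library and keeps no depth, so no counting error is given.

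Genes with a mean of at least 1 TPM (12870) were compared with limma 3.58.1 (lmFit, eBayes with trend, two-sided) in R 4.3.3 on log2(TPM + 1), with Benjamini-Hochberg adjustment over all of them. Calls needed an adjusted p below 0.05 and a fold change above 1.5. The fit was tested on simulated data. No count-based test was run. Errors of TPM are SD between libraries, and SE is that of the fitted log2 fold change. The labels do not say how the libraries of a genotype relate to litters or cages, so p-values measure the spread between these libraries.

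The genes described and all lists were chosen with earlier results of these data known. Named were the 15 largest called changes in each direction, the 8 highest levels, the highest of each class, the 3 genes on each side of the threshold and Rhob. The substrate classes follow the family number in the gene symbol. Positions and exon overlaps are from GENCODE M21 (GRCm38), in which 55141 of 55487 identifiers were found. Alternatives were other pseudocounts, filters and scalings, a replicate block, no trend, a fold change above 2, unadjusted p-values, an exact permutation test, each library left out and, chosen after seeing the data, only the 147 genes at 5 TPM or more in each genotype.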

Additional observations from a re-analysis of the deposited data

Results flagged for a closer look

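Values far from the other 4 of their group were looked for with Dixon's test in 86 groups of 5 libraries, of which 9 were found, while chance gives about 1 in 20, or 4. Of these, 7 were in the library labelled RhoB-/- replicate 5. Its Rhob level was 110.87 TPM, against 0.09 to 0.57 TPM in the other RhoB-/- libraries. Slc39a4 was at 353.68 TPM there, against 216.08 to 251.17 TPM. Slc25a20 was at 270.54 TPM, against 168.39 to 192.76 TPM, and Slc9a2 at 149.8 TPM, against 101.89 to 112.47 TPM. Slc30a1 was at 35.55 TPM, against 20.89 to 23.21 TPM. Slc37a1 was at 157.11 TPM, against 116.28 to 122.53 TPM, and Slc23a2 at 36.56 TPM, against 22.32 to 25.86 TPM. The absorptive colonocyte markers Krt20, Aqp8 and Lypd8 were also highest in this library, at 2414, 838.6 and 20395 TPM.

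The other 2 were low values of WT replicate 1. Slc20a1 was at 87.57 TPM there, against 222.95 to 237.11 TPM in the other WT libraries. Slc17a4 was at 19.66 TPM, against 29.64 to 33.56 TPM. WT replicate 1 also had the highest share of TPM from mitochondrially encoded genes, 26.5%. The part of these properties in the values was not tested.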

How the results depend on the processing

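Of the 160 genes 19 were higher and 12 lower. No called gene changed its direction under any alternative run. The counts were 19 and 17 with a pseudocount of 0.1, 15 and 11 without the filter, 19 and 10 with quantile normalization, 23 and 8 with each library centred, and 18 and 19 without mitochondrially encoded genes. Over all genes tested the shares under these settings ran from 2.4% to 7.38% higher and from 2.55% to 11.1% lower. A filter of 5 TPM and a fit without trend gave 19 and 12, unadjusted p-values 20 and 15, and the genes at 5 TPM or more in each genotype 18 and 8. Of the 19 and 12 called genes 14 and 8 were called under all 8 other pseudocounts, filters, scalings and designs. At a fold change above 2 the counts were 9 and 2. In the exact permutation test, adjusted, they were 0 and 0, since the smallest adjusted p this design gave was 0.0547, and at an unadjusted exact p below 0.05 they were 19 and 14. Leaving out 1 library gave 14 to 22 higher and 7 to 16 lower genes, with 7 lower without WT replicate 4, and a median change of -0.13 to -0.02. Over all genes tested the shares in these fits were 4.46% to 6.15% higher and 4.77% to 10.5% lower. The replicate numbers did not pair the libraries (correlations of same-numbered libraries -0.09 to 0.07, and 2 of 10 libraries correlated best with their own number). With the replicate block 20 genes were higher and 12 lower, of which 19 and 11 were called without it.

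Reversals occurred in genes that were not called. Slc25a5 changed by -0.053 with quantile normalization and by -0.074 without mitochondrially encoded genes, and Slc25a3 by -0.063 in the latter. Slc35c1 changed by 0.027 with centring. Leaving out 1 library gave -0.050 to 0.054 for Slc25a5, -0.045 to 0.053 for Slc25a3, -0.16 to 0.011 for Slc35c1 and -0.10 to 0.28 for Slc35e2. The cause was not tested. The unknown depth limits the precision of the genes at low TPM.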

Other observations

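Of the 56 solute carrier genes with a mean of 1 to under 5 TPM, 1 rose (1.79%) and 5 fell (8.93%) by the same rule, all without overlap between the genotypes. Of all genes tested 5.58% rose and 7.13% fell, and 5.97% were higher and 8.55% lower without overlap, so nothing is read from these counts. They were chosen after their values were seen. Slc6a4, the serotonin reuptake transporter, which the intestinal epithelium uses to clear serotonin, was at 4.23, 7.33, 3.36, 5.13 and 4.29 TPM in WT libraries and at 1.4, 1.30, 1.49, 1.41 and 1.27 TPM in RhoB-/- libraries. The RhoB-/- libraries lay within a narrow range below every WT library (log2 fold change -1.27, SE 0.17, adjusted p = 0.000381 by limma). Slc16a12, a carrier of creatine, was at 0.98 to 6.07 TPM in WT and 0.13 to 0.68 TPM in RhoB-/- libraries (-1.59, SE 0.30, adjusted p = 0.00426). Slc16a10, the aromatic amino acid carrier TAT1, was at 1.67 to 3.97 TPM in WT and 1.17 to 1.52 TPM in RhoB-/- libraries (-0.65, SE 0.17, adjusted p = 0.0225).

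Slc24a3, a potassium-dependent sodium-calcium exchanger, had a change of -0.79 (SE 0.23, adjusted p = 0.0316). Slc9a3r2 encodes NHERF2, the adaptor related to the product of Slc9a3r1. It was at 5.22 to 5.89 TPM in WT and 1.46 to 5.2 TPM in RhoB-/- libraries (-0.74, SE 0.21, adjusted p = 0.0274), a change opposite in sign to that of Slc9a3r1. Slc16a12 and Slc24a3, with means of 0.302 and 0.59 TPM in RhoB-/- libraries, passed the filter on low values only through the WT libraries and had to differ. The gene that rose was Slc7a9 (1.2, SE 0.26, adjusted p = 0.00857).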
